A study of Mus musculus with 20 samples.

Results

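The 7 genes described here, Cd9, Cd37, Cd53, Cd63, Cd81, Cd82 and Cd151, encode tetraspanins that are studied on lymphocytes. They were taken by name from count files that list 24391 genes for each of 20 mouse RNA samples. The set was picked because Cd82 was among the strongest differences between wild-type BioNICD and its mutant. Values of that comparison are therefore given as a description, with no test, while the other comparisons did not enter the choice.

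Tetraspanins are small proteins that cross the membrane several times. They have no known enzyme activity and act by holding partners such as integrins, immunoglobulin-superfamily proteins and proteases together in membrane patches. On T cells, CD81, CD82 and CD53 can act as costimulatory molecules and link receptors to the actin cytoskeleton. CD37 and CD53 are largely restricted to blood cells, CD151 binds laminin-binding integrins, and CD63 and CD9 are widely used as markers of late endosomes and of extracellular vesicles.

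All samples came from E2-10HA, a mouse T cell hybridoma, that is, a fusion of T cells with a tumour line, which the labels describe as mature T cells. CRISPR controls (n = 6) carried the empty lentiCRISPRv2 vector, and the H2A.Z guide samples (n = 6) carried that vector with guides to both H2afv and H2afz, the genes for the histone variant H2A.Z. Both were selected with puromycin, so the controls share the vector and the drug. BioNICD samples carried the bacterial biotin ligase BirA (pLXSP-BirA) and pMY-BioNICD-IRES-GFP, which encodes a biotin-tagged Notch intracellular domain (NICD), the signalling part of the receptor. One group of these had wild-type NICD (n = 2) and the other a form labelled DEP mutant (n = 2), and both were selected with histidinol and by sorting. NICD-ER samples carried pMIGRI Flag-NICD-ER IRES GFP, which encodes NICD fused to the hormone-binding part of the estrogen receptor, and were sorted. They were kept for 24 hours with ethanol (n = 2) or with 4-hydroxytamoxifen (4-OHT, n = 2), which binds that part, so the ethanol controls also carried the fusion. All 6 guide samples carry 1 line number in their titles. Since no label says that replicates were separate cultures, a p-value here covers only the spread among the samples at hand, and that spread may be technical.

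Total counts ran from 10704131 in a CRISPR control to 48238324 in a BioNICD wild-type sample. In the CRISPR groups, the labels give a treatment for replicates 1 and 2 but leave it out for replicates 3 to 6, which was taken to mark 2 submission sets, each with both groups. In 6 of the 8 samples of set 2 the free-text description names another group than the title, and the plasmid field goes with the title, which was followed. H2afz stood at 28.2 ± 2.52 CPM (counts scaled to library size with TMM factors; mean ± SD, n = 6) in the controls and 5.20 ± 0.429 CPM (n = 6) with the guides, and H2afv at 127.6 ± 11.8 and 36.1 ± 12.0 CPM, with no overlap between the groups for either. Of 12 T cell markers, 10 or 11 had a mean of at least 1 CPM in each of the 6 groups, with summed levels of 1724 to 2661 CPM. Among 5 fibroblast markers, the sum was 26.6 CPM in control replicate 1 and 31.1 CPM in guide replicate 1, led by Col1a2, against at most 0.475 CPM in the other 10 CRISPR samples. In the BioNICD wild-type samples, 1 gene of each of 3 other lists stood high: the B cell kinase Blk (list sum 239 to 241.8 CPM over 6 markers, with Ms4a1 at 0), the integrin Itgam (61.7 to 63.2 CPM over 6 myeloid markers, Fcgr1 at 0) and the growth factor receptor Pdgfrb (113.4 to 116.4 CPM over 5 fibroblast markers, Col1a2 and Lum at 0). Elsewhere the B cell sum was at most 0.235 CPM and the myeloid sum at most 2.16 CPM, and 2 of 5 megakaryocyte markers reached 1 CPM in every group (sums of 2.66 to 5.34 CPM, Pf4 at 0).

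The line expressed 5 of the 7 genes. Cd53, Cd82, Cd37, Cd151 and Cd81 reached a mean of at least 1 CPM in every group, and Cd9 and Cd63 in none. Since genes can be compared only per length, levels were also divided by the exon length in the files. On that scale, Cd53 was the most abundant member in 4 of the 6 groups, with 116.2 CPM per kb in the CRISPR controls against 41.6 for Cd82, 34.1 for Cd37, 30.0 for Cd151 and 10.4 for Cd81. Cd82 led in the other 2 groups, with 826.4 CPM per kb in the BioNICD wild-type samples and 318.0 in the NICD-ER samples with 4-OHT.

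The make-up of tetraspanin RNA shifted accordingly. Cd82 held 18.8% of the summed CPM per kb of the 7 genes in the CRISPR controls, 21.8% with H2A.Z guides, 14.0% in BioNICD DEP and 18.6% in NICD-ER with ethanol. Its share was 66.0% in BioNICD wild type, a value tied to the choice of genes, and 44.3% in NICD-ER with 4-OHT, which did not enter it. Cd53 held 48.7% to 61.3% in the 4 groups where it led, and 25.9% and 40.8% where Cd82 led. The summed level itself was 232.3 CPM per kb in the CRISPR controls, 362.4 with guides, 363.0 in BioNICD DEP, 1253 in BioNICD wild type, 454.0 with ethanol and 718.0 with 4-OHT. Because these are bulk samples, fewer cells with a transcript and less RNA per cell cannot be told apart.

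**Figure D1:**
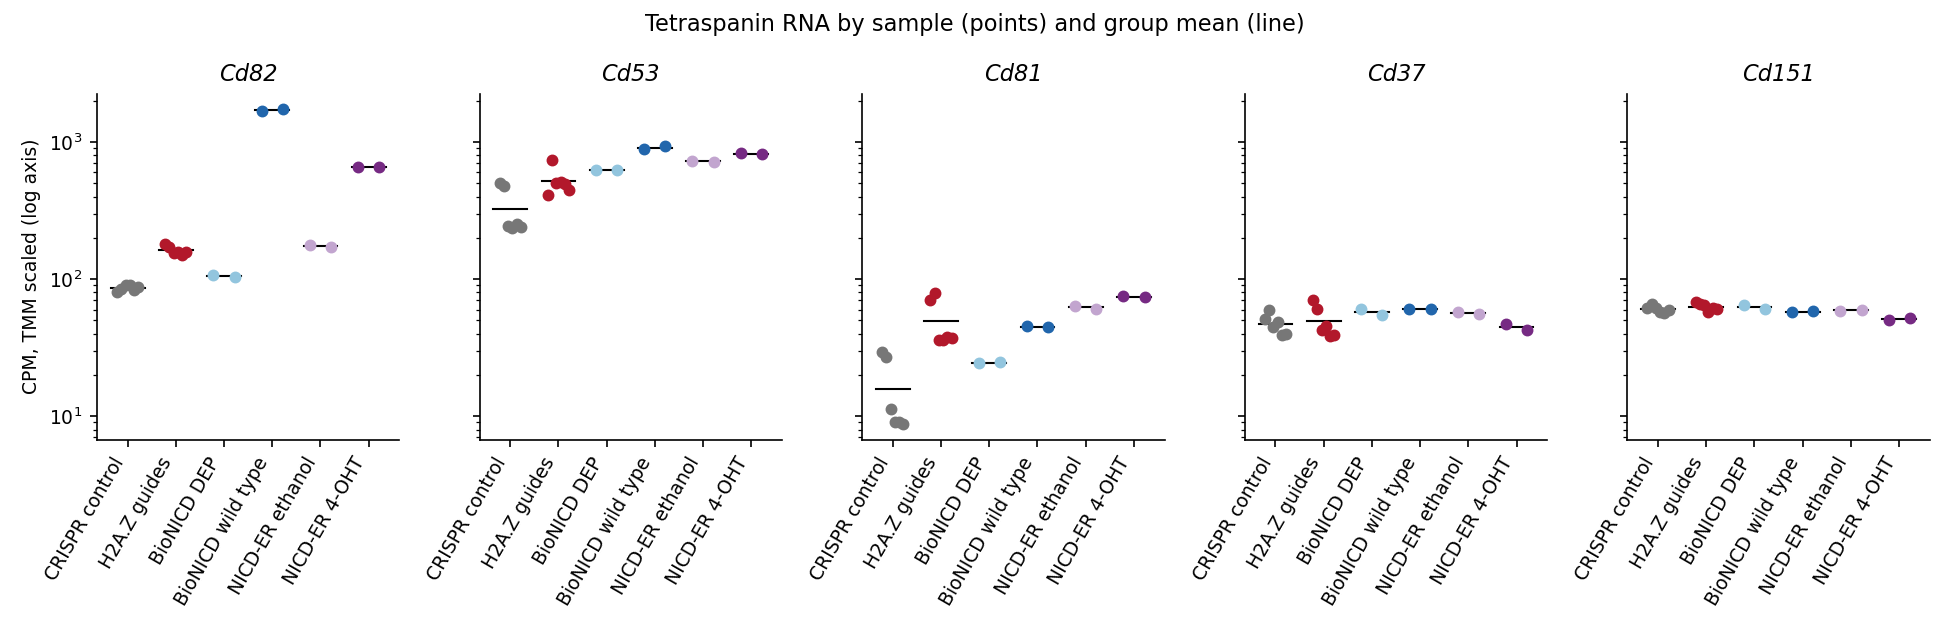
CPM (log axis) of the 5 measurable tetraspanins in each of the 20 samples, by group (n = 6 for each CRISPR group, n = 2 for each NICD group); points are samples and lines group means. Cd82 spans 80.7 to 1735 CPM, whereas Cd151 stays between 50.1 and 67.8 CPM.

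**Figure D2:**
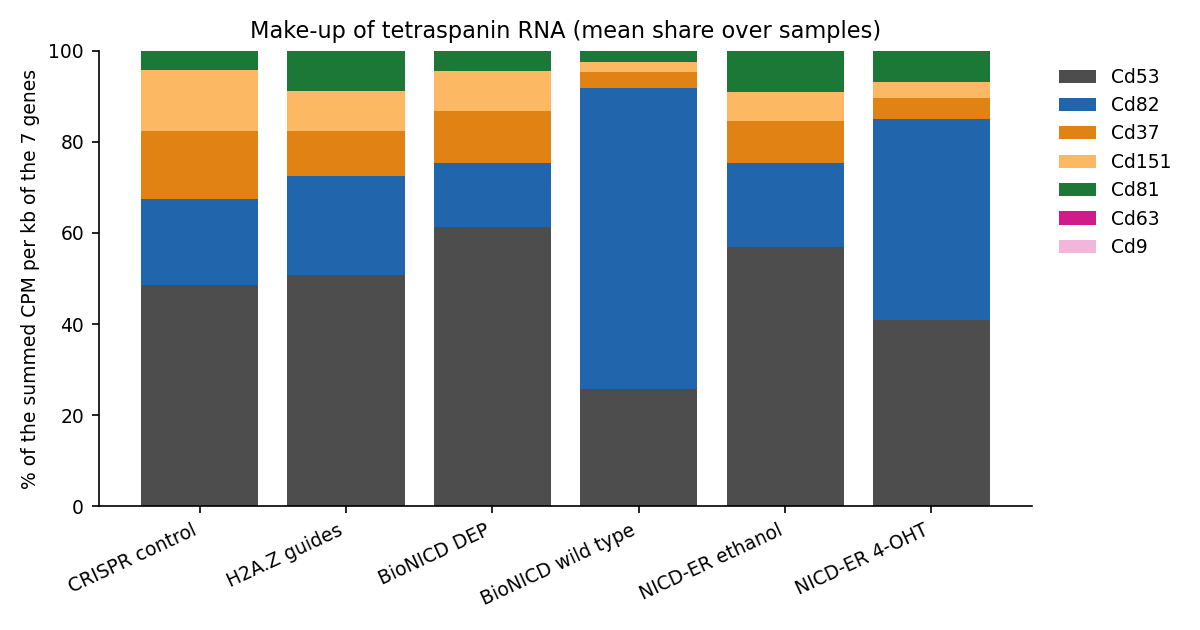
Mean share (%) of each gene in the summed CPM per kb of the 7 genes, by group; Cd9 and Cd63 are too low to see. Cd82 takes 66.0% in BioNICD wild type and 44.3% in NICD-ER with 4-OHT, against 14.0% to 21.8% in the other 4 groups.

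Cd82 (KAI1), a metastasis suppressor in carcinomas, had the widest range of the members, with a 19.9-fold ratio between the highest and the lowest group mean. The highest group was BioNICD wild type, whose values entered the choice of genes. In the groups that did not enter it, means ran from 86.3 CPM in CRISPR controls to 660.4 CPM with 4-OHT. Cd82 lies on mm9 chromosome 2 from 93259259 to 93303107, minus strand. In the 6 CRISPR controls its lowest, median and highest levels were 80.7, 85.9 and 91.3 CPM, and in the 6 guide samples 150.6, 158.1 and 180.9 CPM. The BioNICD DEP samples had 107.8 and 103.1 CPM and the wild-type samples 1698 and 1735 CPM. The NICD-ER samples had 178.4 and 172.3 CPM with ethanol and 659.7 and 661.1 CPM with 4-OHT. Replicates thus lay close together in every group, and the order of group means was BioNICD wild type, NICD-ER 4-OHT, NICD-ER ethanol, H2A.Z guides, BioNICD DEP and CRISPR control. The only neighbours in that order whose samples overlapped were NICD-ER ethanol and the H2A.Z guides.

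Adding 4-OHT to NICD-ER cells raised Cd82 by 1.92 on the log2 scale (SE 0.039, 3.79-fold, edgeR quasi-likelihood test, adjusted p = 3.82e-21). Of the 12499 genes tested, 204 had a higher log2 fold change. In this comparison 36.2% of all genes tested were called at an adjusted p under 0.05, 19.0% higher and 17.2% lower, against 5 of the 5 members tested, 3 higher and 2 lower. With H2A.Z guides, Cd82 was 0.90 higher on the log2 scale (SE 0.051, 1.87-fold, edgeR adjusted p = 2.94e-10), and every guide sample exceeded every control. There the background was high: 64.5% of 10662 genes were called, 31.8% higher, against 3 of 5 members tested, all 3 higher. In BioNICD cells, the comparison on which the gene was chosen, Cd82 was 4.02 higher on the log2 scale with wild type than with DEP (16.2-fold), and 443 of 12499 genes had a higher log2 fold change. Cd82 was the only member of the 5 with a difference of at least 2-fold there, and 11.9% of all genes were at least 2-fold higher and 4.05% at least 2-fold lower. Nothing is read from that count because the choice of genes used it. The same wild-type samples held the Blk, Itgam and Pdgfrb RNA given above, and their part in the level of Cd82 was not tested.

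NICD has no DNA-binding part of its own and acts through RBPJ, a factor whose binding motif has the core TGGGAA, so the promoters of the members were searched for these letters on both strands. RefSeq promoters (build GRCm38.p6, 250 bases before to 50 after each start) were matched for 7 of 7 members, with 11 windows. The core stood in 5 of the 11 windows, against 25.6% of all 32851 windows in the table. By gene, it stood in at least 1 window of 5 of the 7 (Cd9, Cd63, Cd81, Cd82 and Cd151). No share by gene was taken for comparison, and genes with more windows have more chances of a match. The longer form GTGGGAA, which contains the core, stood in 1 of the 11 windows (Cd9), against 6.38% of all windows. Cd82 has 4 annotated starts, and the 3 upstream windows lack the core, while the 4th holds it only after the start. The 250 bases before the outermost and the innermost Cd82 starts are printed to show what the most responsive member holds there, with that of Cd81, which has a match at base 41, in capitals, for comparison. The Cd82 windows lie at chr2:93462951-93463200 and chr2:93452673-93452922 (minus strand) and the Cd81 window at chr7:143052500-143052749 (plus strand). A match is a description of letters and not a binding site, and its absence says only that these letters are not in the window.
Cd82 outermost start: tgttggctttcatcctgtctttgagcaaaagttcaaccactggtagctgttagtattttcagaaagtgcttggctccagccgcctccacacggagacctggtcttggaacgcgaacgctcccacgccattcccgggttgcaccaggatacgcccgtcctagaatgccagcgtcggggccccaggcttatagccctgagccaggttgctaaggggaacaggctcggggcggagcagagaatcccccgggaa
Cd82 innermost start: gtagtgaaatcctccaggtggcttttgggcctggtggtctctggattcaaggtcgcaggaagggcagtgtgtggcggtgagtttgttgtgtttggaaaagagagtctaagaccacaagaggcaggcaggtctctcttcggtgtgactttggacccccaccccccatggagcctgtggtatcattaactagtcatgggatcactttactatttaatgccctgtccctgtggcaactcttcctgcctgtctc
Cd81: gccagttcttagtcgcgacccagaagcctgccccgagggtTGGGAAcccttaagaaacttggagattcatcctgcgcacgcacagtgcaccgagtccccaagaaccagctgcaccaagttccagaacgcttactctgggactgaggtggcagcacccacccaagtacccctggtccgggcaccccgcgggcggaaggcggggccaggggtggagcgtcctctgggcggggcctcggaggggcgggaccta

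Cd81, which takes part in costimulation on T cells, had the largest fold change among the members in the H2A.Z comparison. It lies on mm9 chromosome 7 from 150238655 to 150253835, plus strand, and shares 30 exon bases with the antisense gene R74862, whose reads the unstranded counting cannot separate. The controls ranged from 8.79 through a median of 10.2 to 29.4 CPM, and the guide samples from 35.9 through 37.6 to 79.1 CPM. All guide samples lay above all controls, and both groups held a pair of high samples, replicates 1 and 2. Cd81 was 1.73 higher on the log2 scale with guides (SE 0.092, 3.31-fold, edgeR adjusted p = 1.44e-10). Cd81 and Cd82 were the members whose guide samples all exceeded the controls, 2 of 5 tested, and 17.1% of all genes tested did so.

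In the NICD-ER cells, Cd81 had 64.1 and 60.5 CPM with ethanol and 74.9 and 74.0 CPM with 4-OHT. The rise was 0.26 on the log2 scale (SE 0.046, 1.20-fold, edgeR adjusted p = 7.42e-05). In BioNICD cells it had 24.5 and 24.8 CPM with DEP and 45.3 and 44.8 CPM with wild type, 0.86 higher on the log2 scale. Over the 6 groups, Cd81 was highest with 4-OHT and lowest in the CRISPR controls, a 4.71-fold ratio of means, and the samples of ethanol and guides, of guides and BioNICD wild type, and of BioNICD DEP and CRISPR controls overlapped.

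Cd53, a leukocyte tetraspanin that stabilises L-selectin on lymphocytes, was higher with H2A.Z guides and with 4-OHT. It lies on mm9 chromosome 3 from 106561779 to 106593067, minus strand. The controls ranged from 236.9 through a median of 250 to 501.8 CPM, and the guide samples from 413.7 through 495.6 to 739.0 CPM. These groups overlapped, since control replicates 1 and 2 had 501.8 and 474.0 CPM and guide replicate 1 had 413.7 CPM. Cd53 was 0.74 higher on the log2 scale with guides (SE 0.133, 1.67-fold, edgeR adjusted p = 0.000142). With set 1 alone the difference was 0.24 and no longer called (edgeR adjusted p = 0.497), and with set 2 alone it was 1.00 (adjusted p = 7.03e-15).

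NICD-ER cells had 725.8 and 720.1 CPM of Cd53 with ethanol and 825.2 and 817.6 CPM with 4-OHT. The difference was 0.19 on the log2 scale (SE 0.037, 1.14-fold, edgeR adjusted p = 0.000264). BioNICD cells had 626.7 and 620.9 CPM with DEP and 882.6 and 933.7 CPM with wild type, 0.53 higher on the log2 scale. Group means fell in the order BioNICD wild type, NICD-ER 4-OHT, NICD-ER ethanol, BioNICD DEP, H2A.Z guides and CRISPR control, a 2.79-fold range, and only the last 3 overlapped with a neighbour.

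Cd37, a leukocyte tetraspanin best known from B cells, fell with 4-OHT and showed no called difference with the guides. It lies on mm9 chromosome 7 from 52489002 to 52494485, minus strand. NICD-ER cells had 58.1 and 55.3 CPM with ethanol and 47.1 and 42.7 CPM with 4-OHT, and Cd37 fell by 0.33 on the log2 scale (SE 0.056, edgeR adjusted p = 5.57e-05). In the CRISPR groups the controls ranged from 39.2 through 46.9 to 59.1 CPM and the guide samples from 38.5 through 43.9 to 71.0 CPM. These ranges overlapped, and the log2 difference of 0.04 had an approximate 95% interval from -0.12 to 0.20 (edgeR adjusted p = 0.691). In BioNICD cells the DEP samples had 61.0 and 54.9 CPM and the wild-type samples 60.3 and 61.0 CPM. The 6 group means stayed within a 1.35-fold range, with every neighbour overlapping.

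Cd151, the partner of laminin-binding integrins, had the narrowest range of the 5, 1.24-fold between the highest and lowest group mean. It lies on mm9 chromosome 7 from 148653261 to 148657380, plus strand. Its samples ranged from 56.3 through 60.8 to 65.3 CPM in the controls and from 57.3 through 62.9 to 67.8 CPM with guides, a log2 difference of 0.05 with an approximate 95% interval from -0.04 to 0.13 (edgeR adjusted p = 0.371). With ethanol it had 58.4 and 59.9 CPM and with 4-OHT 50.1 and 51.8 CPM, and it fell by 0.21 on the log2 scale (SE 0.048, edgeR adjusted p = 0.00156). The 4-OHT samples were the lowest of all 20. BioNICD cells had 65.3 and 60.7 CPM with DEP and 57.2 and 58.3 CPM with wild type, 0.13 lower on the log2 scale with wild type (-0.13).

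The 4 smaller differences with 4-OHT were called only in models of the NICD samples. The biological coefficient of variation, the spread within groups beyond counting, was 3.58% among the 8 NICD samples and 11.2% in 1 model of all 20 samples. The latter model had no term for submission set, so its value also held differences between the sets of CRISPR samples. In the CRISPR samples alone, the value was 13.3% without that term and 7.95% with it. In the model of all 20 samples, Cd82 was the only member still called. Cd37 (edgeR adjusted p = 0.531), Cd53 (0.872), Cd81 (0.88) and Cd151 (0.151) were not, with fold changes of the same direction.

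**Figure D3:**
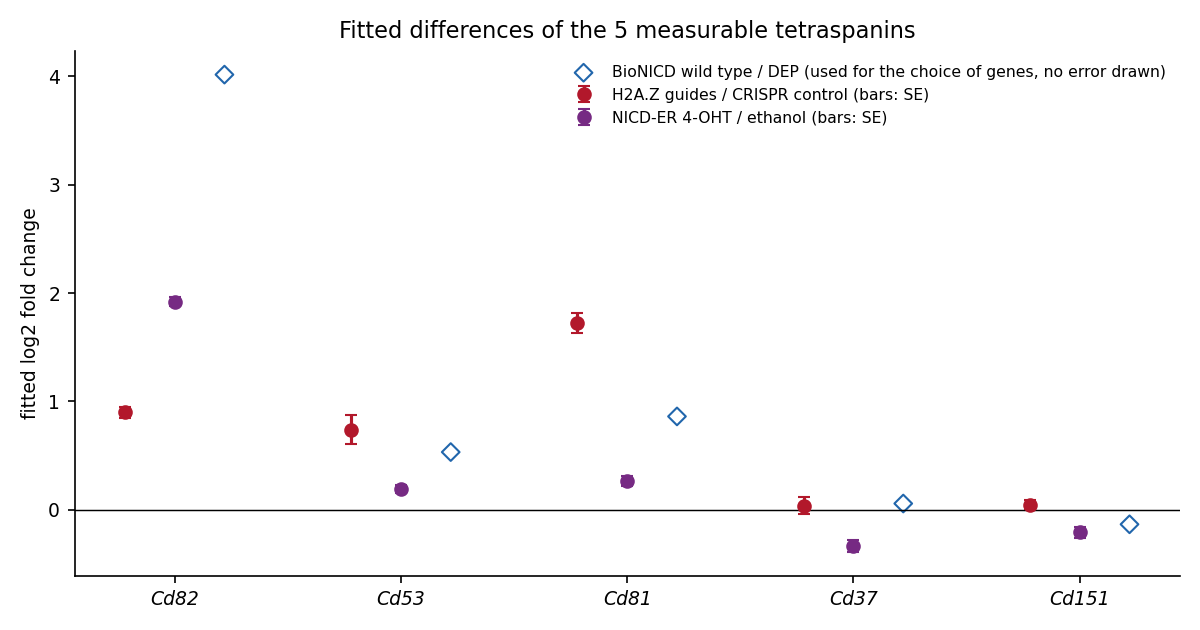
Fitted log2 fold changes of the 5 measurable tetraspanins for H2A.Z guides against CRISPR control (n = 6 each) and NICD-ER with 4-OHT against ethanol (n = 2 each), with SE bars, and for BioNICD wild type against DEP (n = 2 each), drawn open and without error because it chose the genes. Cd82 is highest with 4-OHT (1.92) and Cd81 with guides (1.73), while Cd37 and Cd151 lie near 0 with guides and below 0 with 4-OHT.

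Cd9, known from platelets and from egg-sperm fusion, and Cd63, a protein of late endosomes and lysosomes, were close to absent from these libraries and did not pass the filter on low counts in any comparison. Cd9 (mm9 chromosome 6, 125410284 to 125444773, minus strand) had 0 to 3 counts per sample. Cd63 (mm9 chromosome 10, 128345975 to 128349874, plus strand) had 0 to 6 counts per sample. The highest counts of both were in guide replicate 1, with 3 for Cd9 and 6 for Cd63, the library with the highest summed fibroblast markers among the CRISPR samples (31.1 CPM). Control replicate 1, at 26.6 CPM of those markers, had 2 counts of each, and what part these RNAs had in the counts was not tested. The level of Cd63 is uncertain, because 36.5% of the 50-base stretches of its transcript also occur in the pseudogene Cd63-ps, which is not among the counted genes, and reads that fit both places may have been lost. For Cd9 that share with Cd9-ps was 1.19%.

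In the fit of all 12 CRISPR samples, the H2A.Z differences of 3 members differed between the submission sets. In set 1, Cd53 averaged 487.9 CPM in controls and 576.3 CPM with guides, and in set 2 it averaged 244.3 and 487.6 CPM. For Cd81 the averages were 28.3 CPM in controls and 74.8 CPM with guides in set 1, against 9.54 and 36.8 CPM in set 2. Controls of set 1 were thus higher than those of set 2 for both genes, while Cd82 averaged 82.5 CPM in controls of set 1 and 88.3 CPM in those of set 2, and with guides 175.5 and 155.7 CPM. The effect in set 2 minus that in set 1 was 0.75 for Cd53 (edgeR adjusted p = 0.0230), 0.54 for Cd81 (0.0105) and -0.28 for Cd82 (0.0233) on the log2 scale, and not called for Cd37 (adjusted p = 0.140) or Cd151 (0.872). Of all genes tested, 15.7% were called in this comparison. None of the 3 was called without control replicate 1 (edgeR adjusted p = 0.0979, 0.0738 and 0.102) or without the 3 samples highest in the ribosomal precursor Rn45s, control replicate 6 and guide replicates 5 and 6 (0.105, 0.121 and 0.153), and Cd53 was not called without control replicate 2 (0.0569). The size of the Cd53 difference varied with the 2 guide samples of set 1: it was 0.38 without guide replicate 1 (edgeR adjusted p = 0.00198) and 1.23 without guide replicate 2 (5.19e-09). Without guide replicate 2, the Cd37 difference of -0.44 was called as well (edgeR adjusted p = 0.0161). Within each set alone, the guides were called higher for Cd81 and Cd82, with log2 differences of 1.40 and 1.09 in set 1 and 1.94 and 0.82 in set 2. The targeted gene H2afv had 56.9 and 44.6 CPM in the guide samples of set 1 and 27.4 to 30.0 CPM in those of set 2. Its controls had 128.8 and 149.4 CPM in set 1 and 116.5 to 129.1 CPM in set 2. The part of H2afv in the differences between sets was not tested.

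**Figure D4:**
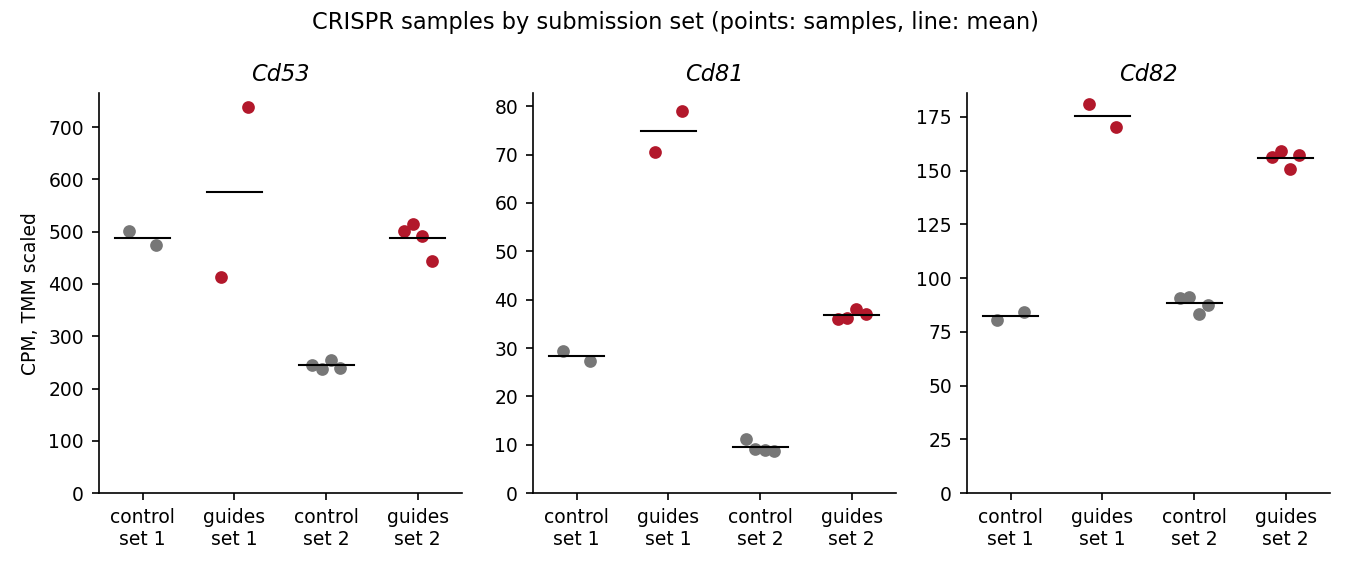
CPM of Cd53, Cd81 and Cd82 in the 12 CRISPR samples by group and submission set (2 samples per group in set 1, 4 in set 2); points are samples and lines means, and each axis starts at 0. For Cd53 the groups overlap in set 1 and lie apart in set 2, and for Cd81 and Cd82 they lie apart in both.

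Other tetraspanins were examined next, 24 genes of the same superfamily. Together with the 7 members, 16 of 31 reached a mean of at least 1 CPM in some group. With H2A.Z guides, 9 of the 24 were tested, of which 2 rose and 3 fell, with a median log2 difference of 0.07 against -0.01 over all genes. Of all genes tested there, 64.5% were called, 31.8% higher. Tspan13 fell most, from 71.3 ± 7.15 to 5.52 ± 1.58 CPM (log2 -3.70, SE 0.093, edgeR adjusted p = 1.90e-14), so it moved opposite to Cd82 and Cd81. Tspan6 fell from 2.22 to 0.472 CPM, while Tspan32, a tetraspanin of blood cells, rose from 96.4 to 154.4 CPM and Tspan14, a partner of the protease ADAM10, from 52.1 to 62.7 CPM. The Tspan14 groups overlapped, and its call was lost with set 1 alone (edgeR adjusted p = 0.0711). The log2 difference of Tspan32 was 0.65, and 1.009 with set 1 alone. With set 1 alone, 1 of these tetraspanins rose and 1 fell.

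With 4-OHT, 19.0% of all genes tested were called higher and 17.2% lower. Of the 24 other tetraspanins, 14 were tested, of which 4 rose and 2 fell, with a median log2 difference of 0.18 against -0.00045 over all genes. These counts varied with the method: 2 rose and 3 fell with upper quartile scaling, 2 rose and 1 fell in DESeq2, 1 rose and 0 fell in the model of all 20 samples, and 1 rose and 1 fell without 4-OHT replicate 2. Without ethanol replicate 2, 2 rose and 1 fell, and without 4-OHT replicate 1, 2 rose. Without ethanol replicate 1, 1 fell. Tspan13 rose from 25.9 ± 2.79 to 109.5 ± 0.869 CPM (log2 2.09, 4.26-fold, SE 0.050, n = 2 each, edgeR adjusted p = 9.51e-20). Tspan32 fell from 178.7 to 135.4 CPM, and Tspan5, another ADAM10 partner, rose from 34.5 to 40.04 CPM. In the model of all 20 samples neither was called (edgeR adjusted p = 0.116 and 0.113), and Tspan5 was not called without 4-OHT replicate 2 (0.0728). Tspan3 rose from 51.4 to 56.4 CPM, a call that was lost with upper quartile scaling (edgeR adjusted p = 0.0919), in DESeq2 (0.117), in the model of all 20 samples (0.455), and without ethanol replicate 2 (0.152) or either 4-OHT replicate (0.138 and 0.117). Tspan13 therefore went up with Cd82 in NICD-ER cells and down where Cd82 went up in the guide samples. In BioNICD cells, 3 of 14 were at least 2-fold higher with wild type and 1 at least 2-fold lower, against 11.9% and 4.05% of all genes. Among the 3 was Tspan9, with 9.30 CPM in wild type and at most 0.0309 CPM on average in any other group. It thus passed the filter only through wild type. The lower gene, Tspan2, had 0.0829 CPM with DEP and 0.0209 CPM with wild type, and nothing is read from these counts. Tspan13 had 54.3 CPM with DEP and 494.5 CPM with wild type.

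Proteins that bind tetraspanins formed a list of 26. With guides, 12 were tested, of which 8 rose and 2 fell, where 64.5% of all genes were called, 31.8% higher. The median log2 difference was 0.22, against -0.01 over all genes. With set 1 alone 4 rose with guides. With 4-OHT, 19.0% of all genes were called higher and 17.2% lower. Of the partners, 18 were tested, of which 8 rose and 3 fell (median 0.28, against -0.00045). In the model of all 20 samples 4 rose and 0 fell with 4-OHT, and 1 fell without ethanol replicate 2 or 4-OHT replicate 1. Igsf8 (EWI-2), the immunoglobulin-superfamily partner of CD9 and CD81, went from 138.3 to 310.9 CPM with 4-OHT (log2 1.18, SE 0.037, edgeR adjusted p = 1.42e-17). Itgal, the alpha chain of the integrin LFA-1, went from 260.5 to 501.5 CPM. The antiviral membrane proteins Ifitm1 and Ifitm3 rose from 1.39 to 14.4 and from 4.58 to 21.0 CPM.

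With the guides, the coreceptor Cd4 went from 5.12 to 108.5 CPM (log2 4.23, SE 0.186, edgeR adjusted p = 1.48e-11), with 66.3 to 191.6 CPM across the guide samples. Itgb7, an integrin beta chain, rose from 188.3 to 396.7 CPM, and Ifitm3 from 0.335 to 1.53 CPM, although its groups overlapped and the call was lost with set 1 alone (edgeR adjusted p = 0.321). Control replicate 1 held 1.41 CPM of Ifitm3, and without it the log2 difference went from 2.29 to 3.54. The adhesion receptor Cd2 fell from 23.6 to 8.04 CPM. In BioNICD cells 9 of 18 partners were at least 2-fold higher with wild type and 1 was at least 2-fold lower (median 1.00). Of all genes there, 11.9% were at least 2-fold higher and 4.05% at least 2-fold lower. Cd38 was among the 9, with 18.8 CPM in wild type and at most 0.272 CPM on average in any other group. It thus passed the filter only through wild type, and nothing is read from the count.

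Genes of vesicle formation, a list of 17, moved in both directions. With guides 13 were tested, of which 4 rose and 6 fell (median log2 difference 0.02), 10 of 13 called against 64.5% of all genes. With set 1 alone 0 rose, with set 2 alone 7 rose, and without the set term 2 rose. The log2 difference of Flot1 was -1.25 in set 1 and -0.44 in set 2. The membrane scaffold proteins Flot2 and Flot1 fell from 34.2 to 11.9 and from 46.9 to 28.9 CPM, the ESCRT protein Stam from 48.0 to 28.6 CPM and the GTPase Rab35 from 84.4 to 63.2 CPM. With 4-OHT 14 were tested, of which 3 rose and 1 fell (median 0.0032), against 19.0% called higher and 17.2% lower of all genes. The number that fell varied with the method: it was 3 with upper quartile scaling or with a replicate block, and 2 in DESeq2. Vps4b, the ATPase that disassembles ESCRT, rose from 149.4 to 178.1 CPM, Sdcbp (syntenin, which binds CD63) from 180.2 to 211.4 CPM and Pdcd6ip (Alix) from 176.7 to 192.7 CPM, while Flot1 fell from 36.1 to 28.7 CPM. In the model of all 20 samples none of these 4 was called (edgeR adjusted p = 0.0677, 0.304, 0.507 and 0.432), and Pdcd6ip was not called without 4-OHT replicate 2 (0.0705). In BioNICD cells 2 of 14 were at least 2-fold higher with wild type, against 11.9% of all genes.

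As a reference for the NICD samples, 14 Notch target genes were listed. With 4-OHT 11 were tested, of which 6 rose and 4 fell (median 0.71), against 19.0% called higher and 17.2% lower of all genes. The largest changes were those of Hey1 (0.502 to 45.1 CPM), Nrarp (0.0947 to 3.77 CPM), Dtx1 (28.2 to 360.4 CPM) and Il2ra (85.8 to 354.4 CPM). With the guides 7 were tested, of which 6 rose and 0 fell (median 0.85), where 64.5% of all genes were called, 31.8% higher. Hes1 went from 1.49 to 7.32 CPM, with overlap between the groups and a log2 difference of 2.29 that was 3.64 with set 1 alone. The latter value rests on few reads, with 1 count in each control of set 1 against 14 and 27 counts with guides. Dtx1, which was not among the 7 tested, had 18 counts over all controls and 5 over all guide samples. Bcl2 went from 55.1 to 130.5, Tcf7 from 189.4 to 392.5 and Lfng from 15.5 to 28.1 CPM. The 4 that fell with 4-OHT, Myc (log2 -1.08), Bcl2 (-0.48), Lfng (-0.34) and Gata3 (-0.11), were all called higher with guides. In the model of all 20 samples, 1 target fell with guides and 1 with 4-OHT. Cd82 rose 3.79-fold with 4-OHT and 1.87-fold with guides. In BioNICD cells 5 of 11 Notch targets were at least 2-fold higher with wild type and 2 at least 2-fold lower, against 11.9% and 4.05% of all genes. The 2 lower ones were Bcl2 and Notch1. Notch1 averaged 281.3 CPM with wild type, 645.5 with DEP, 98.0 with ethanol and 91.4 with 4-OHT, but 2.00 CPM in the CRISPR controls. What part of these counts came from the NICD constructs was not tested, so its lower value is not read as a change of the gene itself.

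Finally, genes with patterns like those of the members were sought over all 20 samples, by the root mean square difference of centred log2 CPM among 11988 genes. The samples include those of BioNICD, on which Cd82 was chosen. For Cd82 the likeness thus rests in part on the values that chose it, and it is given as a description only. The gene most like Cd82 was Furin, a proprotein convertase, with a difference of 0.28 log2 units against a median gene at 1.39. Furin averaged 57.6 CPM in CRISPR controls, 89.6 with guides, 72.7 in BioNICD DEP, 638.8 in BioNICD wild type, 116.5 with ethanol and 345.2 with 4-OHT, the same order of groups as Cd82. B4galnt4 (0.39), the transporter Slc2a9 (0.41), Ccdc141 (0.43) and Gm1968 (0.44) followed, the last with at most 0.858 CPM in any group. Gm1968 was at 0 CPM in the CRISPR and BioNICD DEP groups. From ethanol to 4-OHT, B4galnt4 went from 5.79 to 10.4, Slc2a9 from 12.2 to 19.9 and Ccdc141 from 20.3 to 42.8 CPM, where Cd82 rose 3.79-fold. Nearest to Cd53 were Mgat4a (0.28), Gnb5 (0.31) and Dlg3 (0.31), against a median of 0.715. For Cd81 they were Ahnak (0.38), Capg (0.40) and Clcf1 (0.45), against 1.09. Cd37 and Cd151 varied too little for a likeness to be read, with an SD of group means under 0.5 log2 units, and the difference between these members was 0.24. Cd82 was no closer than 1.005 to any other member (Cd53).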

How the data were processed

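RNA of 20 samples was depleted of ribosomal RNA and sequenced from libraries made with a stranded kit, per the labels' protocols. The deposited values are raw read counts per gene, which the authors made with featureCounts 1.5.0 on exons of an mm9 annotation with no strand or multi-mapping option, per the file headers. Groups and replicate numbers come from the sample titles. Levels are CPM with TMM factors over all 20 samples, divided by exon length where genes are compared.

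Tests on these counts used edgeR 4.0.16 (quasi-likelihood, R 4.3.3) with TMM and filterByExpr. P-values were adjusted over the whole table by Benjamini-Hochberg, and a gene was called below 0.05. For the H2A.Z comparison, the model held the 12 CRISPR samples and a term for submission set (10662 genes), and for the NICD-ER comparison the 8 NICD samples in 1 model (12499 genes). The difference between sets was tested as an interaction. The SE was derived from the log2 fold change and the F statistic (absolute change over root F), and approximate intervals follow from it. Steps were tested on simulated data. Alternatives were other scalings, no filter, DESeq2 1.42.0, other sample sets, a replicate block and leaving out each replicate.

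Same-numbered CRISPR samples deviated together from their group means (r = 0.315 to 0.490), and from their group and set means by r = -0.165 to 0.201, highest for the replicates 6, which were both high in Rn45s (6.73% and 6.93% of counts). No pair of replicates agreed within sampling noise (mean chi-square of 2.66 to 53.6 per gene over 18 pairs, where noise gives 1). Library totals were used there without TMM factors, and a few genes with many counts, such as Rn45s, can raise such a mean. Pairs of control replicate 6 with controls 3 to 5 had 34 to 37.1, and pairs among controls 3 to 5 had 2.99 to 4.43. The spread between replicates thus exceeds counting error, and without molecular identifiers the reads are not independent counts of molecules.

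The 7 members and all gene lists were chosen with earlier results of these data known. Of each list, at most 4 called genes per comparison were named, those with the largest fold change and a mean of at least 1 CPM. For members whose group means had an SD of at least 0.5 log2 units, the 3 most similar genes (5 for Cd82) were named.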

Additional observations from a re-analysis of the deposited data

Results flagged for a closer look

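Cd53 in H2A.Z guide replicate 2 stood at 739.0 CPM, apart from the other 5 guide samples at 413.7 to 514.3 CPM. Its gap to the nearest sample exceeded the 95% critical value of Dixon's ratio for 6 samples. Both submission sets were pooled in this comparison: replicate 2 is from set 1, where the other guide sample had 413.7 CPM. In 10 groups tested, chance alone flags about 1 in 20.

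The effect of the guides in set 2 minus that in set 1 was 0.75 for Cd53, 0.54 for Cd81 and -0.28 for Cd82 on the log2 scale (edgeR adjusted p = 0.0230, 0.0105 and 0.0233). The calls were lost without control replicate 1 (edgeR adjusted p = 0.0979, 0.0738 and 0.102). For Cd53 the difference was 0.38 without guide replicate 1 and 1.23 without guide replicate 2.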

How the results depend on the processing

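Of 255 values of single members under the alternatives, 240 counted as unchanged, and of 543 values of other named genes, 527 did. A tested value counted as unchanged if it kept its side of the threshold and, where called in either fit, its direction. Uncalled values could change direction, as for Cd37 with guides (log2 0.04, and -0.06 with set 2 alone). BioNICD values, which have no test, counted as unchanged if they kept their direction and moved by less than 1 SD of the replicates. The fit with a replicate block called 6412 genes with H2A.Z guides and 5012 with 4-OHT, against 6874 and 4521, and changed no call of a member. One model of all 20 samples, which had no set term, called 880 genes and 1 member with 4-OHT, in place of 4521 and 5. Upper quartile scaling with 4-OHT gave 1970 genes higher and 2586 lower, against 2376 and 2145. Set 1 alone called 2948 genes with guides. For the difference between sets, 1672 genes and 3 members were called in all, 447 and 0 without the 3 samples highest in Rn45s, and 851 to 4062 genes and 0 to 4 members when 1 replicate was left out (lowest without control replicate 1, highest without guide replicate 2). The log2 difference of Cd37 between BioNICD wild type and DEP, 0.06, was -0.021 to 0.13 when 1 sample was left out, with the lowest value without DEP replicate 2. Without both replicates 1 of the CRISPR groups, an alternative chosen after seeing their fibroblast markers, 7360 genes and 3 members were called with guides. With upper quartile scaling, chosen after seeing the data, 12 of 30 group levels moved by more than 1 SD. Depth limits Cd9 and Cd63, which had at most 6 counts in a sample.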
